A study of Mus musculus with 16 samples.

Results

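This section describes the RNA changes that recurred in 3 exon 5 KO clones of Hepa1-6, a mouse hepatoma cell line with hepatocyte features. It rests on the 8 RNA-seq libraries of a series of 16, 2 libraries of the WT line and 2 of each of the clones KO1, KO2 and KO3. Exon 5 of Eef1d was excised in the clones with Cas9 and guide RNAs in the introns on either side of it, and each clone grew from a single cell after puromycin selection. KO1 and KO2 were made with the same pair of guides, and KO3 with another guide on the intron 4 side. WT cells are the unedited Hepa1-6 line, which is present as a single line, so its own level of a gene enters all 3 comparisons with the same sign. With the clone as the unit of replication, 0 of 11755 genes tested were called. In a test of each clone over libraries, whose replicates are the 2 libraries of a line and not the clones, 177 were called against WT in each of the 3 clones in the same direction, 89 higher and 88 lower.

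EEF1D is a subunit of the EEF1B complex, which recharges the elongation factor EEF1A with GTP so that it can bring aminoacyl-tRNA to the ribosome. The complex also holds EEF1B2, EEF1G and valyl-tRNA synthetase (VARS). Short isoforms of EEF1D with and without exon 5 are made by alternative splicing. In the GENCODE vM21 annotation of GRCm38, the transcripts ENSMUST00000154584.8 and ENSMUST00000109972.8 differ in their coding sequence by an in-frame exon of 72 bases, or 24 codons, at chr15:75900691-75900762 on the minus strand. This is the sequence that the clones lack, and it is shown with 20 intron bases on each side and with the exon in capitals.
Eef1d exon: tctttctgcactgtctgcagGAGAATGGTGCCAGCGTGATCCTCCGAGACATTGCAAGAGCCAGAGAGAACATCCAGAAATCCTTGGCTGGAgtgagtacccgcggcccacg
In both WT libraries, the transcript with this exon had more counts than the transcript without it, at 116% and 116.2% of its count. In the 6 KO libraries it had fewer, at 91.6% and 90.7% (KO1), 89.8% and 90.7% (KO2), and 92.2% and 92.6% (KO3). Reads on the shared exons are counted on both transcripts, so these shares do not fall to 0 when the exon is missing.

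The first question was which mRNAs change in the same direction in all 3 exon 5 KO clones. When the 2 libraries of a line were summed and the 3 clones were set against the WT line, edgeR's quasi-likelihood test called 0 of 11755 genes at an adjusted p under 0.05, a background of 0%. An unadjusted p under 0.05 was found for 29 genes, which all had a log2 fold change of 1 sign in the 3 clones. In a calibrated test of 11755 genes without any change, more genes than this would pass that cutoff. The lowest adjusted p was 0.223, for Rhox5. The direction alone agreed in the 3 clones for 2821 genes, or 24% of those tested, with 1374 higher and 1447 lower. When each clone was compared with WT over libraries, 5110 genes were called in KO1, 2472 (KO2) and 4938 (KO3). The 177 genes called in each clone in the same direction are 1.51% of the genes tested, with 0.757% higher and 0.749% lower. The number was 108 without either WT library and 113 with DESeq2. All 29 genes with an unadjusted p under 0.05 are among these 177, which come from the same counts and the same WT line. The clones also differed from each other, since an F test of equal clone means called 8695 genes, or 74%. Of the 177, 112 were called in that test, a smaller share than the 74% of all genes. For most of the 177, the sign was thus common and the size was not.

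Both WT libraries lay outside the range of the 6 KO libraries for 175 of the 177, against 7.31% (859) of all genes tested. This follows in part from how the 177 were called. The falls were larger than the rises. The log2 fold change exceeded 1 in size in every clone for 27 falls and 3 rises, and the smallest change of the 3 clones had a median of 0.54 among the falls and 0.33 among the rises. In 105 of the 177, the smallest change was under 0.5. For 14 of the 177, at least 1 line had 3 counts or fewer, where a fitted fold change depends on the prior count. Of these 14, 1 is a rise and the rest are falls, so the size of some of the largest falls is uncertain. With at least 10 counts required in every RNA library, 91 genes were higher and 67 lower in each clone. Among the falls the change was largest in KO1 for 39, in KO3 for 28 and in KO2 for 21. Among the rises these counts were 31, 33 and 25. Over all genes tested, the median absolute log2 fold change was 0.26 (KO1), 0.25 (KO3) and 0.17 (KO2), the same order as among the falls. The genes described below are the 14 rises and the 14 falls with the largest smallest-clone change among those with at least 50 counts per library on average in WT or in KO cells and with both WT libraries outside the range of the KO libraries.

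**Figure D1:**
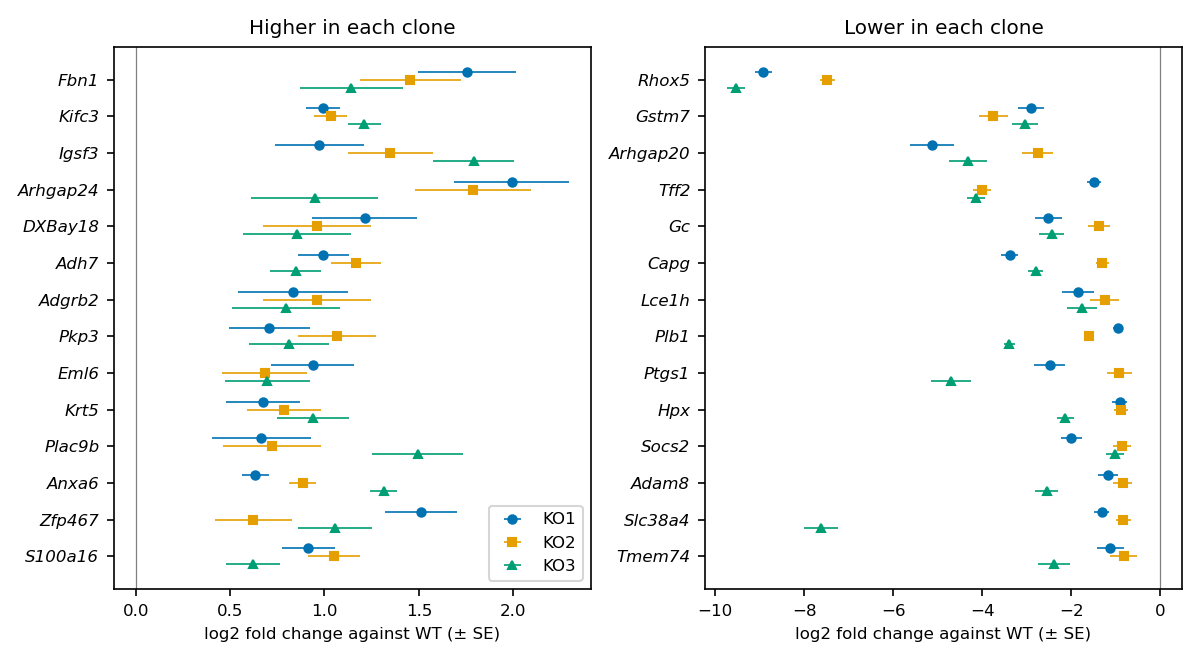
The log2 fold change against WT of the 14 rises (left) and the 14 falls (right) is plotted on the x axis for KO1 (circles), KO2 (squares) and KO3 (triangles). Bars are a standard error derived from the fold change and the F statistic of the edgeR fit over libraries. They can be too short at few counts, since the exact intervals in the text for Rhox5 and Slc38a4 in KO3 are wider. All points of the left panel lie above 0 and all points of the right panel are negative, and the falls reach from -0.82 to -9.54, where the point of Slc38a4 (KO3) rests on 1 count in each library and depends on the prior count.

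Rhox5, an X-linked homeobox gene best known from Sertoli cells and placenta, had the largest smallest-clone change of the 177. It had 149 and 167 CPM (counts scaled by the TMM library size) in WT cells, 0.35 and 0.28 (KO1), 1.12 and 0.65 (KO2), and 0.32 and 0.082 (KO3). The WT line had 3591 counts in all, and the KO libraries had 4 and 3 (KO1), 12 and 8 (KO2), and 4 and 1 (KO3). The level in KO1 was 0.201% of that in WT (95% exact binomial interval 0.0806% to 0.414%) and in KO3 0.123% (0.04% to 0.288%), where the intervals cover counting error only. With the 3 clones fitted as 1 group, the log2 fold change was -8.41 (SE 0.61, edgeR unadjusted p = 1.89e-05, adjusted p = 0.223). In footprints Rhox5 was at 254 and 229 CPM in WT cells and from 0.25 to 1.68 CPM in the 6 KO libraries. Gstm7, a mu class glutathione S-transferase, had 10.5 and 12.1 CPM in WT cells, 1.65 and 1.31 (KO1), 0.94 and 0.73 (KO2), and 1.67 and 1.07 (KO3). Its fall did not differ between the clones beyond the spread of their libraries (edgeR adjusted p = 0.188), with log2 fold changes of -2.92, -3.75 and -3.03. Arhgap20, which encodes a GTPase-activating protein, was at 9.37 and 7.24 CPM in WT cells and at 1.30 CPM or below in every KO library.

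Tff2, Gc and Hpx among the described falls encode secreted proteins. Tff2, a trefoil peptide of mucosal surfaces, had 35.8 and 31.9 CPM in WT cells, 11.1 and 13.0 (KO1), 2.25 and 1.95 (KO2), and 1.59 and 2.21 (KO3). KO1 thus kept more of its Tff2 RNA than KO2 or KO3 (F test over clones, edgeR adjusted p = 4.52e-14). Gc, the vitamin D-binding protein of plasma, had 9.19 and 8.43 CPM in WT cells, 1.47 and 1.60 (KO1), 2.90 and 3.82 (KO2), and 1.82 and 1.39 (KO3). Hpx, the heme carrier hemopexin, had 21.7 and 27.1 CPM in WT cells, 12.05 and 13.9 (KO1), 15.7 and 10.98 (KO2), and 4.68 and 6.47 (KO3). Here KO3 was the lowest, and KO1 and KO2 overlapped. Lce1h, a protein of the cornified envelope, was at 5.82 and 4.34 CPM in WT cells and from 1.13 to 2.36 CPM in the KO libraries.

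The other described falls are enzymes, a transporter and proteins of signaling and the cell surface. Capg, which caps the ends of actin filaments, had 35.9 and 31.2 CPM in WT cells, 2.60 and 3.85 (KO1), 12.4 and 14.6 (KO2), and 4.92 and 4.67 (KO3). The phospholipase Plb1 had 62.7 and 59.5 CPM in WT cells, 32.0 and 31.1 (KO1), 19.4 and 21.1 (KO2), and 5.71 and 5.90 (KO3). The 2 libraries of each line lay close together and the 4 lines did not overlap for this gene. Ptgs1, the cyclooxygenase COX-1, had 6.55 and 6.64 CPM in WT cells, 1.21 and 1.13 (KO1), 3.46 and 3.50 (KO2), and 0.40 and 0.082 (KO3). Socs2, a feedback inhibitor of cytokine and growth hormone signaling, had 12.2 and 10.6 CPM in WT cells, 2.60 and 3.10 (KO1), 5.90 and 6.51 (KO2), and 5.24 and 5.90 (KO3). Slc38a4, an imprinted gene for a transporter of neutral amino acids, had 17.9 CPM in each WT library, 7.45 and 6.85 (KO1), and 9.27 and 10.7 (KO2). In KO3, it had 1 count in each library, which is 0.434% of the WT level (95% exact binomial interval 0.0524% to 1.58%). Adam8, a membrane metalloprotease, had log2 fold changes of -1.17 (KO1), -0.84 (KO2) and -2.55 (KO3), and Tmem74 had -1.12, -0.82 and -2.38.

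The matrix list had 0 rises and 1 fall (Nid2) of 38 genes tested, and the adhesion, junction and keratin list 1 rise (Dsg2) and 1 fall (Itga3) of 31. Over all genes tested, 0.757% were higher and 0.749% lower in each clone. Fbn1, Krt5 and Pkp3, described here by the rule, are not in these lists. Of the described rises, Kifc3, a minus-end-directed kinesin that is known at adherens junctions, had 33.1 and 34.7 CPM in WT cells, 68.0 and 66.8 (KO1), 68.4 and 70.2 (KO2), and 75.0 and 81.9 (KO3). The log2 fold changes were 0.99, 1.03 and 1.21, and the clones differed by 0.22 at most. Fbn1, the microfibril protein fibrillin-1, had 2.27 and 2.81 CPM in WT cells, 9.19 and 8.07 (KO1), 8.33 and 5.78 (KO2), and 6.35 and 4.92 (KO3). Anxa6, a calcium-dependent membrane-binding protein, had 97.6 and 80.2 CPM in WT cells, 138 and 138 (KO1), 165 and 163 (KO2), and 220 and 222 (KO3). The 3 clones did not overlap for Anxa6, and all lay above WT. Krt5, a keratin of basal epithelial cells, had log2 fold changes of 0.67, 0.79 and 0.94 (KO1), KO2 and KO3, and the desmosomal plakophilin Pkp3 had 0.71, 1.07 and 0.81. The clones were not called as different for Krt5 or Pkp3 (edgeR adjusted p = 0.362 and 0.202). Eml6, of a family of microtubule-associated proteins, was higher by log2 fold changes of 0.94, 0.68 and 0.70.

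The remaining described rises are of several kinds. Adh7, an alcohol and retinol dehydrogenase, had 12.01 and 13.9 CPM in WT cells, 24.1 and 27.6 (KO1), 29.0 and 29.2 (KO2), and 24.3 and 22.4 (KO3). Igsf3, a membrane protein of the immunoglobulin superfamily, had 3.28 and 3.32 CPM in WT cells, 6.59 and 6.38 (KO1), 8.98 and 7.89 (KO2), and 12.1 and 10.7 (KO3). Igsf3 was therefore lowest in KO1 and highest in KO3 among the clones. Arhgap24, a GTPase-activating protein for Rac, had log2 fold changes of 1.99 (KO1), 1.79 (KO2) and 0.95 (KO3). S100a16, a calcium-binding protein, had 0.91, 1.05 and 0.62, and the zinc finger protein Zfp467 had 1.51, 0.62 and 1.06. Adgrb2, an adhesion G protein-coupled receptor, had 0.83, 0.96 and 0.80, and DXBay18 had 1.21, 0.96 and 0.86. Plac9b was called with 0.67, 0.72 and 1.49, but it, Plac9a and Gm9780 are near-identical copies on chromosome 14 that are all among the 89 rises, and their reads cannot be told apart with certainty.

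**Figure D2:**
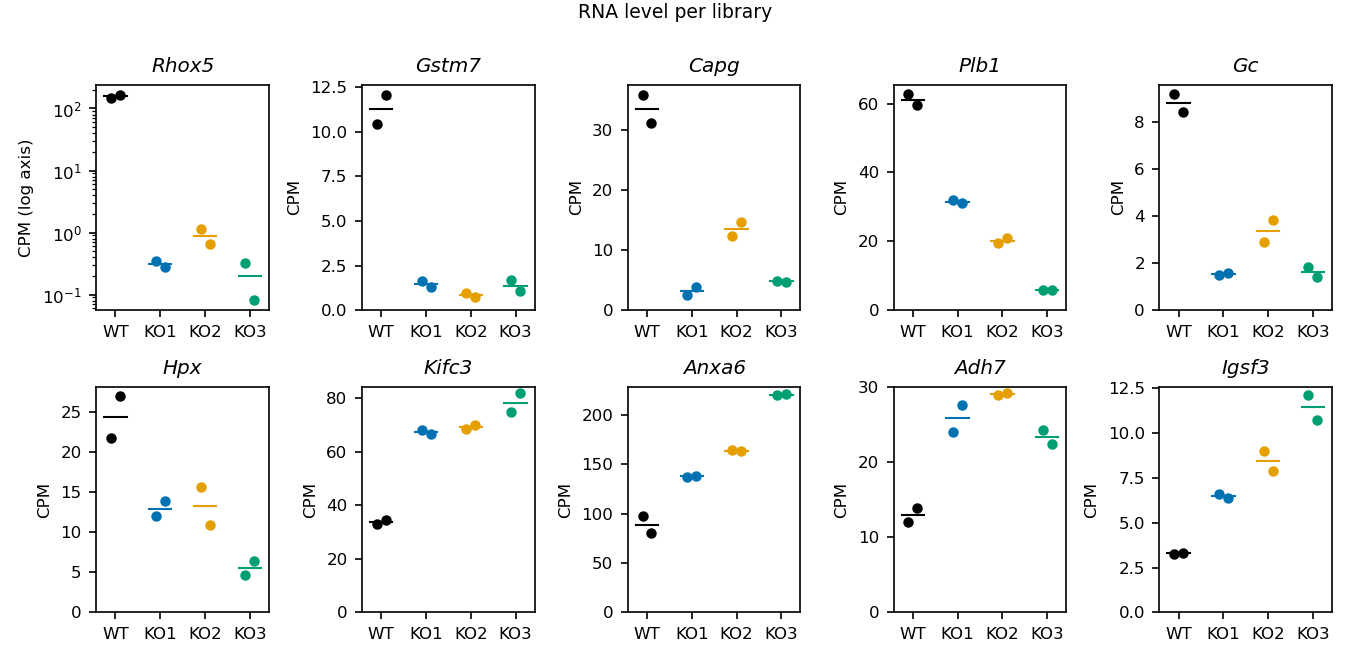
RNA level in CPM (y axis, on a log axis for Rhox5 and from 0 for the others) is plotted for 10 of the described genes, with a point for each of the 2 libraries of WT, KO1, KO2 and KO3 and a line at their mean. The rule that chose these genes puts both WT points outside the range of the 6 KO points, and for Plb1, Capg and Anxa6 the clones lie at different levels.

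Counts of list members are to be read against the 0.757% of all genes that were higher and the 0.749% that were lower in each clone. Of 20 secreted plasma proteins tested, 5 were lower in each clone and 0 higher (Trf, Fgb, Hpx, Rbp4 and Gc). With the 3 clones fitted as 1 group, the median log2 fold change was -0.22 for the list and 0.02 for all genes tested. By clone, the median of the list was -1.45 (KO1), -0.27 (KO2) and -0.51 (KO3). Over all genes it was 0.0006, -0.0038 and -0.0025. The 5 differ in size. Fgb, the beta chain of fibrinogen, had 50.8 and 45.7 CPM in WT cells, 17.9 and 18.8 (KO1), 9.45 and 8.46 (KO2), and 31.0 and 27.7 (KO3). Trf, which encodes the iron carrier transferrin, had 754 and 681 CPM in WT cells, 214 and 213 (KO1), 596 and 584 (KO2), and 471 and 463 (KO3). The retinol carrier Rbp4 was lower by no more than 0.35 on the log2 scale in any clone. In the same list, 16 genes were lower and 2 higher in KO1, 9 and 3 (KO2), and 10 and 6 (KO3). Over all 11755 genes, 2754 were lower and 2356 higher in KO1, 1127 and 1345 (KO2), and 2462 and 2476 (KO3). Of 8 hepatocyte markers tested, Trf and Fgb were lower in each clone, while Alb, the albumin gene, was below WT in KO1 and KO2 and above it in KO3. These list members and the genes named in the next paragraph were named after their values were seen, since none passed the test over clones, apart from Hpx and Gc, which the rule for described genes names.

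The counts in the next lists stand beside the same 0.749% lower and 0.757% higher over all genes. Of 28 p53 targets tested, 2 were lower in each clone and 0 higher, namely Mdm2, the ubiquitin ligase that restrains p53, and Trp53inp1. Mdm2 had 304 and 288 CPM in WT cells, 268 and 258 (KO1), 175 and 177 (KO2), and 232 and 239 (KO3). Of 33 genes of the interferon response and antigen presentation, 2 were higher in each clone and 0 lower. These are Psmb8, a subunit of the immunoproteasome, with 15.3 and 16.1 CPM in WT cells and from 22.9 to 38.0 in KO cells, and Tap2, a peptide transporter of the endoplasmic reticulum, with 10.0 and 8.17 CPM in WT cells and from 11.2 to 22.7 in KO cells. Among 17 genes of IGF and insulin signaling, Irs2, the insulin receptor substrate, was higher and Igfbp1, a secreted binding protein of IGFs, was lower. Igfbp1 had 168 and 161 CPM in WT cells, 40.8 and 38.2 (KO1), 96.3 and 110 (KO2), and 105 and 128 (KO3). Cdkn2b, an inhibitor of cyclin D kinases, was lower (log2 fold changes -0.51, -0.56 and -1.44), and the replication helicase subunit Mcm5 was the 1 of 39 DNA replication genes that was higher in each clone (0.37, 0.29 and 0.34).

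At 1.51% of all genes, a list of this size holds few or no members by its size alone. Among 79 ribosomal protein genes, 1, Rpl13, was called in each clone, at a log2 fold change of 0.11, 0.18 and 0.28, although 37 of these genes were higher and 25 lower in KO1. None of 20 cytosolic aminoacyl-tRNA synthetases, 24 cholesterol synthesis genes, 29 genes of ATF4 and the integrated stress response, 24 ER chaperones and unfolded protein response genes, 14 cytosolic heat shock genes or 26 NRF2 targets was called in each clone in the same direction. The clones differed for all 24 cholesterol synthesis genes and all 29 ATF4 and stress response genes (F test over clones), against 74% of all genes. Cholesterol synthesis genes had a median log2 fold change of -0.73 (KO1), with 21 of 24 lower, 0.10 (KO2) and 0.02 (KO3). ATF4 and stress response genes had -0.65 (KO1), 0.03 (KO2) and 0.20 (KO3).

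Eef1d, on the transcript used for it, and its partners were not among the 177. The transcript used, with the largest sum over all RNA and footprint columns, was the long one, listed with 543 codons (ENSMUST00000137426.7). It does not hold the excised exon in GENCODE vM21. In WT RNA it had fewer counts, 2082 and 2255, than the transcript with the exon, 2386 and 2582. In every KO library the long one had more. The change of the transcript with the exon against WT was not tested. Reads on shared exons count on each transcript, so these counts do not show which isoform is the main one. The long transcript was at 189 and 192 CPM in WT cells, 182 and 179 (KO1), 206 and 202 (KO2), and 132 and 133 (KO3). Its log2 fold change was called in KO3 alone among the 3 clones (-0.53, SE 0.0616, edgeR adjusted p = 8.01e-09). With the 3 clones fitted as 1 group, the log2 fold change was -0.15 for this transcript and -0.36 with counts summed over the transcripts of Eef1d. Neither was called. The sum includes transcripts with the excised exon, whose reads on that exon are missing in the clones. Vars was higher by 0.33, 0.13 and 0.15, and missed the threshold in KO2 (edgeR adjusted p = 0.0708). With the chromosome median removed, a step described below, Vars was called in each clone (0.22, 0.18 and 0.19), and also with the median of 20 Mb windows removed (0.19, 0.19 and 0.18). Eef1b2 had log2 fold changes of 0.28, 0.10 and -0.07, and Eef1g 0.15, -0.03 and -0.09. Among genes for ER membrane proteins known to bind kinesin or ribosomes, Ktn1 had 0.09, -0.21 and -0.31, and Rrbp1 -0.11, -0.02 and 0.29.

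The 89 rises were unevenly spread over the chromosomes. On chromosome 8 lay 31 of them, which is 4.90% of the 633 genes tested there, against 0.757% of all genes. The median log2 fold change of the genes on chromosome 8 with at least 50 counts per library was 0.26 (KO2), 0.22 (KO3) and -0.02 (KO1), and in KO2 91.3% of them lay above 0. The shift ran along the whole chromosome, from 0.22 to 0.32 (KO2) and from 0.16 to 0.28 (KO3) over windows of 20 Mb. Other chromosomes had medians away from 0 in a given clone, such as chromosome 7 (-0.44 in KO1), chromosome 9 (-0.36 in KO1), chromosome 1 (0.28 in KO2), chromosome 6 (-0.32 in KO3) and chromosome 12 (0.32 in KO3). Of the 88 falls, 15 lay on chromosome 7, which is 1.69% of the 888 genes tested there, against 0.749% of all genes. Chromosome 10 held 9 falls, or 1.59% of the 567 genes tested there. Footprints gave medians of -0.01, 0.27 and 0.22 in KO1, KO2 and KO3 on chromosome 8, and -0.43 in KO1 on chromosome 7. DNA copy number was not measured, and its part in these shifts was not tested.

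When the median shift of the chromosome was taken out of each line, a step added after the data were seen, 141 genes were called in each clone in the same direction, 52 higher and 89 lower. Of the 177, 104 were still called. These were 4 of the 31 rises on chromosome 8 and 33 of the other 58, and 9 of the 15 falls on chromosome 7 and 58 of the other 73. Of the 28 described genes, Adgrb2, Plac9b and Zfp467 were no longer called. Kifc3, which lies on chromosome 8, kept log2 fold changes of 1.02, 0.77 and 0.99. The other 3 rises kept on chromosome 8 were Fgfr1, Ripor1 and Sorbs2, named after their values were seen. Irs2, Mcm5 and Rpl13, which also lie there, were no longer called, and the log2 fold change of Rpl13 in KO2 turned to -0.08. Rbp4, Tap2 and Lats2 on other chromosomes were also no longer called. With the median of 20 Mb windows removed, Tmem74 was lost as well.

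**Figure D3:**
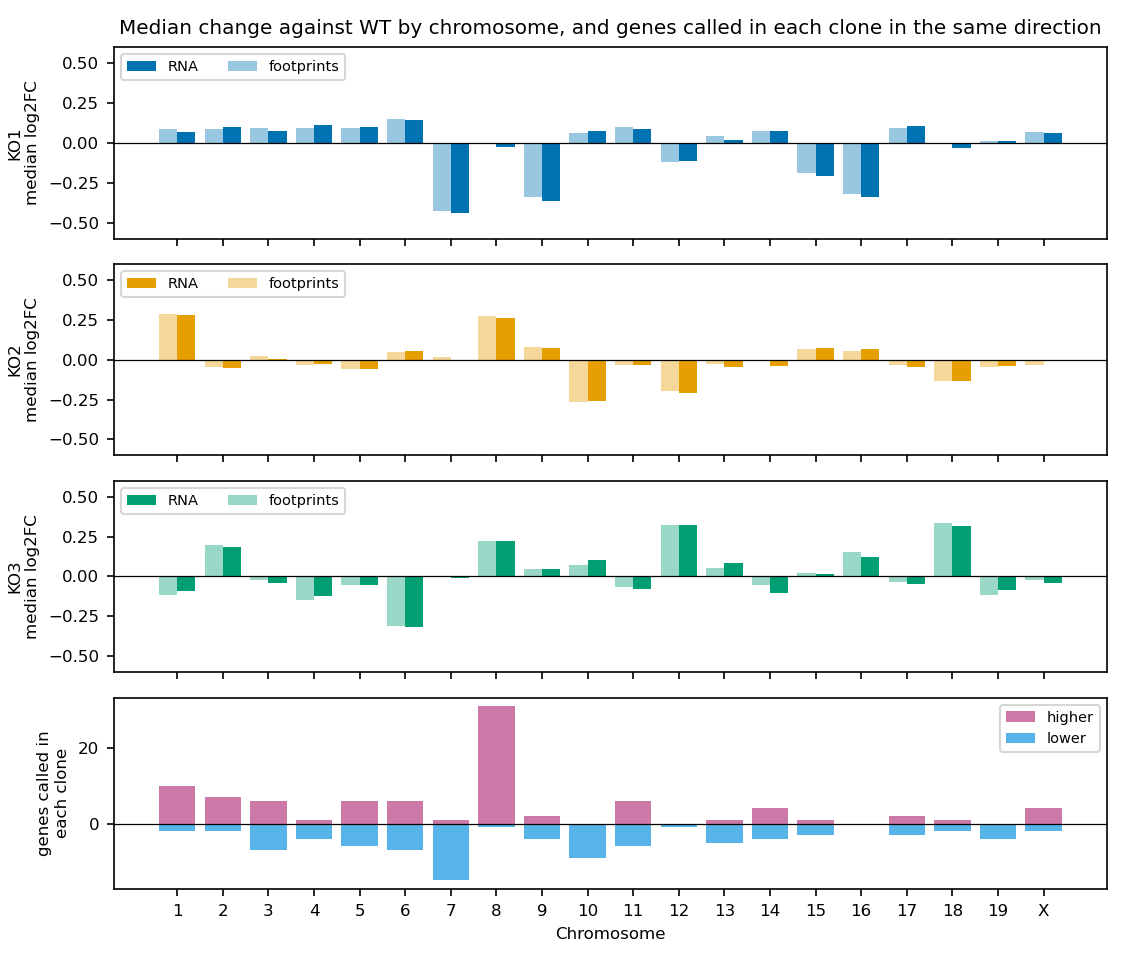
The upper 3 panels give the median log2 fold change against WT by chromosome (x axis) in KO1, KO2 and KO3, for RNA (dark bars) and footprints (light bars), over genes with at least 50 RNA counts per library. The last panel counts the genes called in each clone, higher above 0 and lower under it. Chromosome 8 holds 31 rises (4.90% of its genes tested), chromosome 7 holds 15 falls (1.69%) and chromosome 10 holds 9 falls (1.59%).

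Ribo-seq of the same lysates gave a second readout that the RNA calls did not use, although it shares the cultures. Of the 177 genes, 156 had enough footprints to be tested, 86 rises and 70 falls. The footprint change had the sign of the RNA change in all 3 clones for 148 of them, 80 rises and 68 falls. The same share over all genes is not given here. Both assays share the lysates, WT included, so this agreement of sign is no independent support for the calls. Footprints were called in each clone in the same direction for 79 of 10763 genes (0.734%), and 50 of these are among the 156, all with the sign of the RNA. They comprise 17 rises and 33 falls. The 79 became 32 without replicate 1 of WT, 49 without replicate 1 of KO1 and 47 without replicate 1 of KO2. With the clone as the unit, 0 genes were called for footprints (0%), and 28 had an unadjusted p under 0.05 in edgeR's test. As for RNA, this is fewer than a calibrated test would pass without any change. Kifc3 had footprint log2 fold changes of 0.88, 1.04 and 1.13, and Socs2 had -1.82, -1.31 and -1.31. Fbn1 and Adgrb2 among the described rises and Arhgap20 among the falls had too few footprints to be tested. Lats2, a kinase of the Hippo pathway that was higher in RNA (0.21, 0.40 and 0.21), had footprint log2 fold changes of -0.20, -0.10 and -0.10, and it is 1 of the 8 genes in which the signs did not agree. Zfp467, a described rise, is another, with footprint log2 fold changes of 0.65, -0.08 and 0.88.

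**Figure D4:**
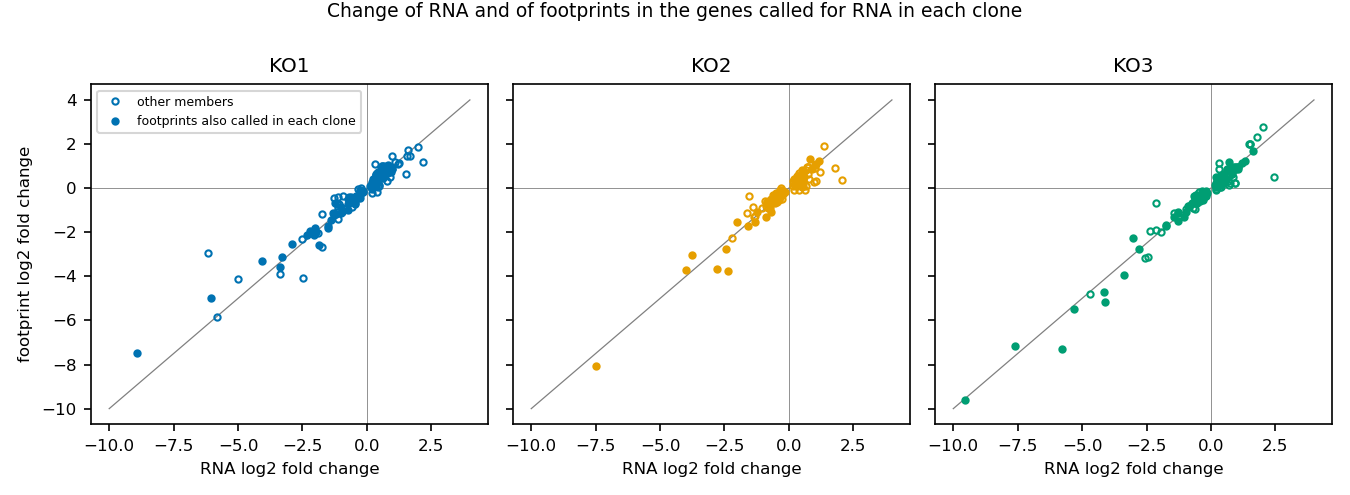
For the 156 genes with footprints tested, the RNA log2 fold change (x axis) is plotted against the footprint log2 fold change (y axis) in KO1, KO2 and KO3, with a diagonal of equal change. Filled points are the 50 genes whose footprints were also called in each clone, and 148 of the 156 have 1 sign for RNA and footprints in all 3 clones.

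The 177 were also described by coding length, level and promoter sequence. The coding sequence had a median of 571 codons among the rises and 415.5 among the falls, against 454 over all genes tested. The median WT level was 47.5 CPM for the rises and 31.9 CPM for the falls, against 30.8 CPM, a level that enters the calls themselves. Promoter windows were read from the GRCm38.p6 genome, from 250 bases before to 50 bases after the 5′ end of the transcript used, for 87 of the 89 rises, 85 of the 88 falls and 11691 of all 11755. The dinucleotide CG, the site of DNA methylation in mammals, occurred a median of 18 times in the windows of the rises and 9 times in those of the falls, against 20 times over all. An observed to expected ratio of CG above 0.6 was found in 64.4% of the rises, 47.1% of the falls and 70.3% of all windows. Among the falls by more than 1 on the log2 scale in every clone it was found in 8 of 25, or 32.0%. Methylation was not measured, and these shares are given without a test.

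Promoters of 4 of the described genes are printed as examples of windows with few and with many CG, 2 of falls (Gstm7 and Gc) and 2 of rises (Kifc3 and Igsf3). They were chosen for their CG content and do not stand for their groups, since the median of the rises lies under that of all genes. Each is given 5′ to 3′ with every CG in capitals. The windows lie at chr3:107931768-107932067 on the minus strand (Gstm7), chr5:89457849-89458148 on the minus strand (Gc), chr8:95142498-95142797 on the minus strand (Kifc3) and chr3:101376833-101377132 on the plus strand (Igsf3).
Gstm7: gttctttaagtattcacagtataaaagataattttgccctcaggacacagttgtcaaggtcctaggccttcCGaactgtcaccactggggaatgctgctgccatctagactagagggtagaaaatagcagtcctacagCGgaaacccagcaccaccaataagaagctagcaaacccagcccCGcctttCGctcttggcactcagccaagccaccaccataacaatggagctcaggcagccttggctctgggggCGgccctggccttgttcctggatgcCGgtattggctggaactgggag
Gc: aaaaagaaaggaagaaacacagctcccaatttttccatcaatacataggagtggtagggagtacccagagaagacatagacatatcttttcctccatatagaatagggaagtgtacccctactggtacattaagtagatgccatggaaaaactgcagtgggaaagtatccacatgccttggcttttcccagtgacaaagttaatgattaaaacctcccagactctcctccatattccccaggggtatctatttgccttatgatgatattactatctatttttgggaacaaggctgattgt
Kifc3: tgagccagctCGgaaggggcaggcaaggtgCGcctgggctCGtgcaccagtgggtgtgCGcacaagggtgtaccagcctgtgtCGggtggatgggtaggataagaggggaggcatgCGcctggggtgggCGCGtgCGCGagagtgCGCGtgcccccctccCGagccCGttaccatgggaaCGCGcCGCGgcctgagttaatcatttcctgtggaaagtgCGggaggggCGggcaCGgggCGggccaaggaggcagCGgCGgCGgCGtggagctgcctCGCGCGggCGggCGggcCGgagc
Igsf3: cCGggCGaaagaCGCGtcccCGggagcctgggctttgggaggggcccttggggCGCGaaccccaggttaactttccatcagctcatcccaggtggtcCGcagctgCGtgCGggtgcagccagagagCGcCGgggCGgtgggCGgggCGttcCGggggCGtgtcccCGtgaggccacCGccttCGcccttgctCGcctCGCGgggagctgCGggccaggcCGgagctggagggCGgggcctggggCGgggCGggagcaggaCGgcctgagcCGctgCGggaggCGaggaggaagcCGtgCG
The Gstm7 window holds 6 CG and the Gc window 0, while the Kifc3 window holds 32 and the Igsf3 window 34.

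The RNA-seq libraries held from 10493030 to 12946819 counts with 1 transcript per gene. Hepatocyte markers summed to 1834 and 1959 CPM in WT cells and to between 710 and 2684 CPM in KO cells, with Alb present in every library, while Ahsg and Serpina1a had 0 to 5 counts. Cholangiocyte markers summed to 470 and 486 CPM in WT cells and to between 176 and 916 CPM in KO cells. Of these, Krt7 had 627 and 608 counts in WT cells, 71 and 93 (KO1), 1600 and 1732 (KO2), and 4213 and 4199 (KO3). Fibroblast and stellate markers summed to 906 and 957 CPM in WT cells and to between 716 and 1110 CPM in KO cells, mostly Dcn. The part of these shifts in the changes above was not tested. Muscle markers summed to at most 4.85 CPM in any library and endothelial markers to at most 2.91 CPM. Leukocyte markers summed to 10.1 and 11.6 CPM in WT cells and to between 5.55 and 27.6 CPM in KO cells. Fewer cells of a type and less RNA per cell cannot be told apart in such bulk samples. The WT level of 1 line stands behind every value above, and a difference between this WT culture and the cells from which the clones grew cannot be told apart from a common effect of the deletion. The clones also share transfection with Cas9, puromycin selection and growth from a single cell, which are not reported for the WT line. Effects of these steps cannot be told apart from those of the deletion either.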

How the data were processed

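RNA-seq and Ribo-seq were made from the same lysates of WT Hepa1-6 cells and 3 exon 5 KO clones, with 2 libraries per line and assay. Sources conflict on the RNA-seq input (polyA RNA in the labels, rRNA depletion in the methods), which was not settled. Per the study's methods, the authors trimmed reads with fastp 0.21.0, removed noncoding RNA and aligned to mm10 with STAR 2.7.0a and GENCODE vM23, and the deposited values are raw counts per transcript at the A-site position, without the first and last 5 codons. A read that fits several transcripts counts for each of them. 1 transcript per gene was used, the one with the largest sum over the 16 count columns, which gave 22392 genes. Genes were kept by filterByExpr over the RNA libraries (11755). edgeR 4.0.16 in R 4.3.3 with TMM was used. The test over clones compared 3 line sums with the WT sum, with 2 residual degrees of freedom moderated over genes, and assumes that the WT line varies like the clones. This test fits 1 level to the 3 clones, and the highest clone weighs most in it. Its log2 fold change is therefore not the mean of the clone log2 fold changes. Standard errors are the absolute log2 fold change divided by the square root of the F statistic, since edgeR gives none. Clone contrasts and the F test between clones came from 1 fit of the 8 libraries, with Benjamini-Hochberg adjustment and a threshold of 0.05. The p-values of those contrasts measure the spread between libraries of a line, which may be technical. CPM were computed with TMM. Positions come from GENCODE vM21 (GRCm38), which matched 11678 genes by symbol and 176 of the 177. The scripts were tested on simulated data. DESeq2 1.42.0 and limma 3.58.1 were alternatives. No gene was called over clones, so the described genes were, by the fixed fallback of the rule, the 14 per direction among those called in each clone with the largest smallest-clone change (the smallest absolute log2 fold change of the 3 clones), a mean of at least 50 counts in the higher group, WT outside the range of the KO libraries, without predicted gene models, and Eef1d, Eef1b2, Eef1g, Vars, Ktn1 and Rrbp1. The members and lists were chosen with earlier results of these data known. The list of TGF-beta and BMP targets is not reported here.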

Additional observations from a re-analysis of the deposited data

Results flagged for a closer look

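For 26 of the 34 genes described by the rule, the change against WT differed between the clones in the F test of edgeR at an adjusted p under 0.05. This test calls 8695 of 11755 genes, so that such a difference is common. The highest minus the lowest clone, on the log2 scale, came to 0.61 for Fbn1, 0.22 for Kifc3, 0.82 for Igsf3, 1.04 for Arhgap24, 0.83 for Plac9b, 0.68 for Anxa6, 0.89 for Zfp467 and 0.43 for S100a16 among the rises. Among the falls it came to 2.05 for Rhox5, 2.38 for Arhgap20, 2.66 for Tff2, 1.14 for Gc, 2.08 for Capg, 2.44 for Plb1, 3.79 for Ptgs1, 1.25 for Hpx, 1.13 for Socs2, 1.71 for Adam8 and 1.56 for Tmem74, and for Slc38a4 to 6.78, where KO3 had 1 count in each library, so that the last value depends on the prior count. The log2 changes of the EEF1B genes and of Ktn1 and Rrbp1 differed by 0.62 for Eef1d, 0.35 for Eef1b2, 0.24 for Eef1g, 0.20 for Vars, 0.40 for Ktn1 and 0.40 for Rrbp1.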

How the results depend on the processing

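With the clone as the unit, edgeR called 0 genes for RNA with the size factors of DESeq2, with at least 10 counts in every library, with counts summed over transcripts, with the transcript of the largest RNA sum and at an adjusted p under 0.1. It called 1, Rhox5, without a filter on low counts. DESeq2 on line sums and limma-voom with the line as a random effect also called 1, again Rhox5, and so did limma-voom with the replicate block (1). Leaving out 1 library or clone gave 0 to 1, where the 1 was Rhox5 without replicate 1 of KO2. The library as the unit gave 2216. Genes called in each clone in the same direction numbered 113 with DESeq2, all among the 177, and 108 to 167 without 1 library, with the lowest value without either WT library. Genes of 1 direction numbered 4281 without a filter on low counts (where 15873 genes were tested), and 2751 to 3281 without 1 library. The F test between clones called 8081 to 8631 genes without 1 library. For footprints with the clone as the unit, DESeq2 called 1 gene, Rhox5, the library as the unit gave 996, and leaving out 1 library gave 0 to 1. Footprints called in each clone, an analysis added after seeing the data, numbered 32 to 85 instead of 79, with 32 without replicate 1 of WT, 49 without replicate 1 of KO1 and 47 without replicate 1 of KO2. Removing the median of 20 Mb windows gave 136 genes called in each clone, 97 of them among the 177, and Adgrb2, Plac9b, Tmem74 and Zfp467 were not among them. The cause of these changes was not tested.

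Replicate numbers were checked for pairing: same-numbered libraries of different lines deviated from their line means with correlations from 0.02 to 0.19 over 10001 genes, not all above 0.1, so the numbers were not taken as pairs, though all 6 were positive and each library thus deviated most like its own number. A replicate block raised the genes called in each clone from 177 to 221 and the genes that differ between clones from 8695 to 8979. Of 743 values of the 34 described genes under alternatives, 36 passed the threshold where the reported value did not. Another 7 changed sign, all of genes whose change with the clones fitted as 1 group was near 0. Leaving out 1 library or clone moved Rrbp1 between -0.058 and 0.148, Eef1g between -0.056 and 0.064 and Eef1d between -0.289 and 0.012, where the sign turned for Rrbp1 without KO3 or replicate 2 of WT (-0.011), for Eef1g without KO1 or its replicate 2 (-0.0028) and for Eef1d without KO3. Rrbp1 was also at -0.015 with the chromosome median removed and at -0.019 with the window median removed.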

Other observations

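Gene families were grouped by symbol after the values were seen, and their counts stand beside 0.749% of all genes lower and 0.757% higher in each clone. Both sphingomyelin synthases were among the 88 falls. Sgms1 had 95.3 and 77.6 CPM in WT cells, 56.4 and 54.9 (KO1), 64.4 and 65.7 (KO2), and 68.0 and 69.7 (KO3), and Sgms2 had log2 fold changes of -0.33, -0.30 and -0.30 (KO1), KO2 and KO3. The footprint log2 fold change was -0.48, -0.42 and -0.35 for Sgms1 and -0.05, -0.17 and -0.19 for Sgms2. Aldh2, the mitochondrial aldehyde dehydrogenase, was lower by nearly the same amount in each clone (-0.48, -0.48 and -0.45), with 483 and 454 CPM in WT cells and from 320 to 351 CPM in KO cells, and its footprints fell by 0.52, 0.45 and 0.49 on the log2 scale. Of 6 Akr1c genes tested, which encode aldo-keto reductases, Akr1c13 and Akr1c18 were lower in each clone and 0 higher. Of 9 S100a genes tested, S100a4 and S100a16 were higher and 0 lower, and S100a4 had 8.10 and 6.04 CPM in WT cells, 10.3 and 9.01 (KO1), 10.7 and 11.4 (KO2), and 31.2 and 25.6 (KO3).

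S1pr1, a receptor for sphingosine 1-phosphate, had 12.6 and 13.8 CPM in WT cells, 0.26 and 0.56 (KO1), 2.06 and 3.58 (KO2), and 6.82 and 10.7 (KO3), so that its fall was shared in direction and spread widely in size. Angptl4, a secreted inhibitor of lipoprotein lipase, had log2 fold changes of -0.999, -0.39 and -1.27, and its footprints -1.14, -0.55 and -1.13. With the chromosome median removed, S100a4 and Angptl4 were no longer called in each clone, and with the median of 20 Mb windows removed, Sgms1, Akr1c13 and S1pr1 were lost as well.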
